A study of Homo sapiens with 12 samples.

Results

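Libraries numbered replicate 1 were compared with libraries numbered replicate 2 in 786-O cells carrying a short hairpin RNA, with each difference taken inside 1 hairpin group. The comparison used 8 of the 12 libraries of the series, 4 per replicate number, chosen by the number that ends each column name of the deposited table. Genes were kept at a CPM of 1 or more in at least 4 of these 8 libraries, which left 14015 of 58381 genes. CPM here is reads of a gene per 1000000 reads on all genes, after the read total of each library was multiplied by a TMM scaling factor. 786-O is an established line from a clear cell renal cell carcinoma without functional VHL protein, so its hypoxia-inducible factor is active in normal oxygen. All groups grew in DMEM with 10% fetal bovine serum and were infected with lentivirus. The virus delivered 1 of 3 hairpins against RARRES2 (shRARRES2_1, shRARRES2_2 and shRARRES2_3), the gene of the secreted protein chemerin, or a hairpin against GFP as control (shGFP). The labels do not say what a replicate number shares across groups, whether replicates were separate cultures, whether cells were a selected pool or a clone, or how dense the cultures were. A p-value here therefore speaks of the spread among these libraries alone, and that spread may be technical.

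Cultures of 1 line can differ in state without any difference in genotype. Interferon-stimulated genes encode antiviral proteins and are switched on when secreted interferon activates a transcription factor complex that holds STAT2 and IRF9. Mitotic genes are transcribed late in the cell cycle and repressed in resting cells, and DNA replication genes are transcribed earlier, at the start of S phase. ATF4 switches on amino acid synthesis and transport when amino acids run short, and sterol depletion switches on the cholesterol synthesis genes.

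The renal identity of the cells was present throughout. PAX8, the defining transcription factor of renal epithelium, had 239 to 594 CPM and PAX2 7.28 to 32.1 CPM over the 12 libraries, while CA9, a HIF target typical of clear cell tumours, did not exceed 3.4 CPM. The leukocyte genes PTPRC and CD3E did not exceed 0.148 CPM and the endothelial genes CDH5 and VWF did not exceed 0.249 CPM. Other members of those lists were detected at a low level: CD14 reached 2.81 CPM, CSF1R 6.84 CPM, PECAM1 3.03 CPM and KDR 1.31 CPM. LUM, a fibroblast proteoglycan, reached 70.2 CPM in replicate 1 of shRARRES2_2 and 13.4 CPM or less in the other 11 libraries. RARRES2 matched the labels, with 40.5, 92.6 and 44.2 CPM in replicate 1 of shRARRES2_1, shRARRES2_2 and shRARRES2_3 against 808.8 CPM in shGFP, and 41, 53.5 and 49.7 CPM in their replicate 2 against 483 CPM in shGFP. Its level did not differ between the replicate numbers beyond the spread of the pairs (log2 difference 0.33, SE 0.29, limma adjusted p = 0.603, higher in replicate 1 of 2 of 4 groups).

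The shallowest of the 8 libraries held 12599424 recovered reads and the deepest 23594195, and in these 8 libraries 3 reads amounted to 0.145 to 0.223 CPM. Replicate 1 of shRARRES2_1 and of shRARRES2_3 stood apart from the other libraries: their TMM scaling factors, recovered from the column totals, were 0.798 and 0.788 against 0.952 to 1.15 elsewhere, and they had 21217 and 20932 genes with a read against 24065 to 27603. Replicate 2 of shRARRES2_3 and of shGFP formed another pair apart. Over the 14015 genes they correlated at r = 0.980 with each other, but at 0.843 and 0.914 with replicate 1 of their own groups, and they were the libraries lowest in the median interferon and mitotic gene. The 100 most abundant genes took 23.2% ± 0.603 of the reads in replicate 1 and 19.6% ± 2.35 in replicate 2 (SD, n = 4 each). The share was higher in replicate 1 of 4 of 4 groups, with p = 0.125 in an exact two-sided sign-flip test, the smallest that 4 pairs allow. Neither depth (exact p = 0.625) nor the mitochondrial share of reads, 4.95% ± 0.694 in replicate 1 and 5.15% ± 0.992 in replicate 2 (exact p = 0.75), differed beyond the spread between pairs.

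No gene passed the limma test of replicate 1 minus replicate 2 at a Benjamini-Hochberg adjusted p of 0.05 (0% of the genes tested, smallest adjusted p = 0.426). At an unadjusted limma p under 0.05 there were 1632 genes, 11.6% of those tested, where the nominal share is 5%. Of these, 892 were higher in replicate 1 (6.36%) and 740 lower (5.28%). When every column was rescaled to a total of 1000000, the split turned to 371 higher and 1392 lower, and the median difference of all genes moved to -0.20 on the log2 scale, against 0.04 as deposited. A difference of that size therefore depends on the scaling. edgeR on the recovered reads also called 0 genes (1328 at an unadjusted p under 0.05), while DESeq2 called 165, with 106 higher and 59 lower in replicate 1. In simulated data of this comparison 19.8% of the DESeq2 calls were false, against 8.50% for limma and 4.26% for edgeR. Those data held independent genes whose spread follows their level. The false share among the 165 DESeq2 calls was not tested.

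Replicate 1 was higher in 4 of 4 groups for 1395 genes (9.95%) and lower in 4 of 4 for 1423 genes (10.2%). The 4 libraries of replicate 1 lay above all 4 of replicate 2 for 254 genes (1.81%) and below them for 317 genes (2.26%). These percentages are the background for the counts of list members that follow. At the filter, 536 genes reached 1 CPM in exactly 4 libraries, with a median mean level of 1.21 CPM, and 646 left-out genes did in exactly 3, with a median of 0.932 CPM. Only 2 genes were kept through the 4 replicate 1 libraries alone and 11 through the 4 replicate 2 libraries alone.

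Interferon-stimulated genes were the list with the largest median among the 31 examined. All 36 members were kept, 35 had a fitted difference above 0, and 28 were higher in replicate 1 at an unadjusted limma p under 0.05, against 6.36% of all genes. The median log2 difference was 1.80, against 0.04 for all genes. None passed after adjustment (limma adjusted p = 0.426 or more). By group, the median member was at a log2 difference of 2.34 in shRARRES2_2, 3.54 in shRARRES2_3 and 1.66 in shGFP, but -0.11 in shRARRES2_1. Members higher in replicate 1 numbered 17 of 36 in shRARRES2_1, 36 in shRARRES2_2, 32 in shRARRES2_3 and 33 in shGFP, and 16 of 36 were higher in 4 of 4 groups, against 9.95% of all genes. In bulk RNA, fewer responding cells and less RNA per cell cannot be told apart.

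**Figure D1:**
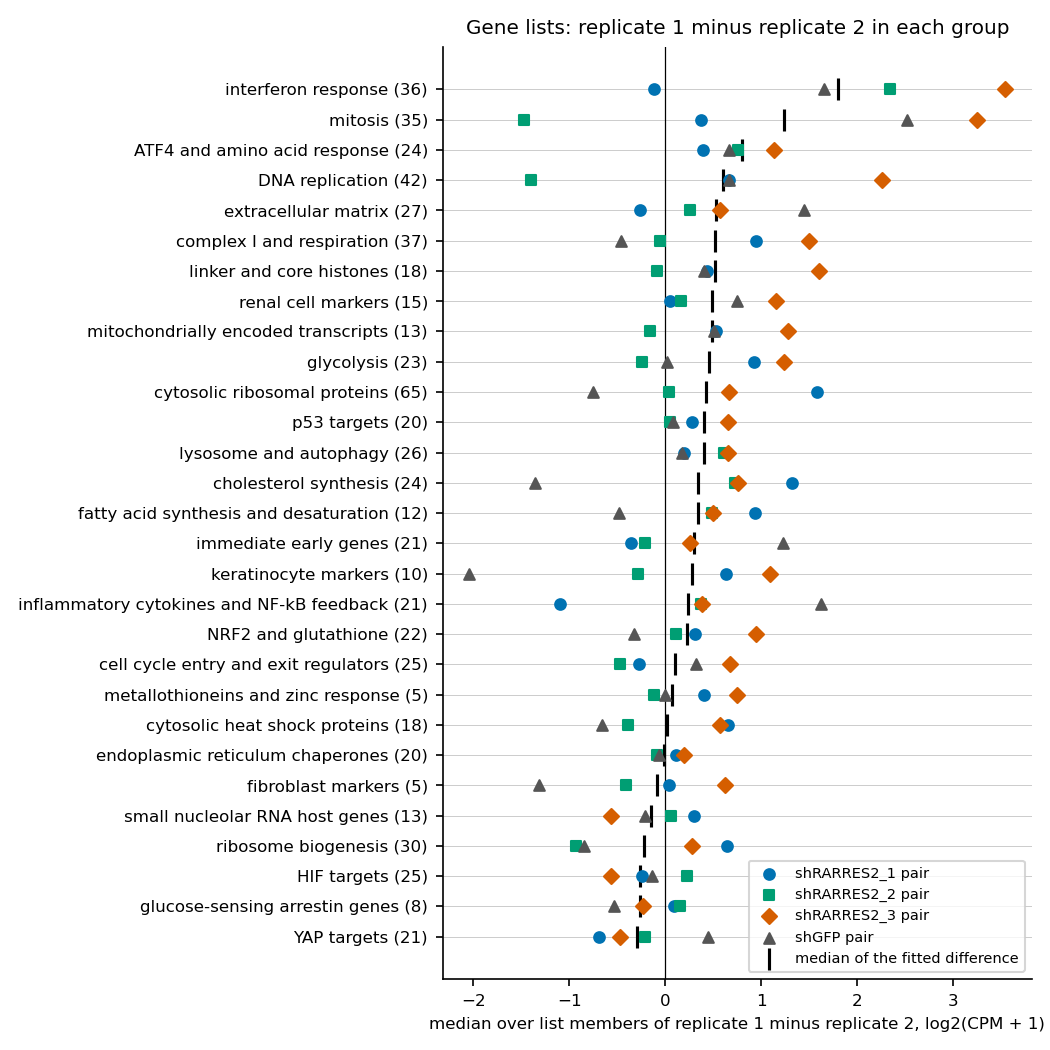
Median over the members of each gene list (number kept in parentheses, lists with 5 or more kept) of the replicate 1 minus replicate 2 difference in log2(CPM + 1); each symbol is the pair of libraries of 1 group and the black tick is the median of the fitted difference. The interferon list lies highest at 1.80 with 3 groups above 1 and shRARRES2_1 at -0.11, and the mitosis list spans -1.47 in shRARRES2_2 to 3.25 in shRARRES2_3.

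The level itself separated high and low libraries. The median member had 84.7, 80.9, 64 and 22.2 CPM in replicate 1 of shRARRES2_1, shRARRES2_2, shRARRES2_3 and shGFP, against 82.6, 14.6, 4.49 and 5.90 CPM in replicate 2. Replicate 2 of shRARRES2_1 was thus as high as the replicate 1 libraries of the hairpins, and the other 3 replicate 2 libraries were the lowest of the 12. The replicate 3 libraries, outside the comparison, had 87.8, 51.5, 37.9 and 111 CPM. The highest of all was therefore a control library, shGFP replicate 3.

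IFI35, an interferon-induced leucine zipper protein (chromosome 17, 43006725 to 43014456, plus strand, GRCh38), had the smallest p of the 14015 genes. It had 153, 63.4, 114 and 21.5 CPM in replicate 1 of shRARRES2_1, shRARRES2_2, shRARRES2_3 and shGFP, against 49.96, 11.9, 7.78 and 6.03 CPM in replicate 2 (log2 difference 2.32, SE 0.40, limma adjusted p = 0.426). Each pair was higher in replicate 1, and the 2 sets overlapped only through replicate 2 of shRARRES2_1, which lay above replicate 1 of shGFP.

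IFIT1, which binds viral RNA, and its partner IFIT3 were likewise higher in replicate 1 of each pair. IFIT1 had 253, 262, 162 and 23.8 CPM in replicate 1, against 112, 14.8, 3.94 and 4.26 CPM in replicate 2 (log2 difference 3.13, SE 0.59). IFIT3 had 424, 207, 228 and 52.2 CPM in replicate 1, against 192, 37.3, 12.5 and 10.0 CPM in replicate 2 (2.48, SE 0.44). In IFIT1 the pair of shRARRES2_3 differed by 5.04 and that of shRARRES2_1 by 1.17 on the log2 scale.

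Members of the 2',5'-oligoadenylate synthetase family, which activate RNase L against viral RNA, were higher in replicate 1 of each pair for OASL and OAS2. OASL, an enzymatically inactive relative, had 368, 39.7, 258 and 12.7 CPM in replicate 1, against 62.8, 7.07, 0.998 and 2.13 CPM in replicate 2 (3.50, SE 0.76). OAS2 had 235, 103, 89.4 and 11.6 CPM in replicate 1, against 176, 1.43, 0.349 and 2.18 CPM in replicate 2 (3.47, SE 0.87). Close relatives in this family and in the IFIT family may share reads, so their single values are less certain than the list.

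RSAD2, the antiviral enzyme viperin, had 128, 21.1, 214 and 2.97 CPM in replicate 1, against 31.3, 0.951, 0 and 0.208 CPM in replicate 2. No read was counted in replicate 2 of shRARRES2_3, which allows up to 0.150 CPM from counting error alone. IFI27, a mitochondrial interferon-induced protein, had 999, 455, 905 and 110 CPM in replicate 1, against 826, 9.69, 6.43 and 13.1 CPM in replicate 2 (3.90, SE 0.92). The shRARRES2_1 pair was close here, at a log2 difference of 0.27, beside 5.41 and 6.93 in shRARRES2_2 and shRARRES2_3.

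ISG15, a ubiquitin-like protein attached to newly made proteins, had 939, 263, 628 and 24.4 CPM in replicate 1, against 373, 31.5, 12.5 and 19.2 CPM in replicate 2 (2.56, SE 0.74). Its shGFP pair differed by only 0.33. MX1, a GTPase that traps viral nucleocapsids, had 89.6, 47.1, 53.4 and 6.31 CPM in replicate 1, against 45.1, 2.73, 2.69 and 2.70 CPM in replicate 2 (2.38, SE 0.57). The chemokine CCL5, not a member of the list, had 132, 6.40, 121 and 10.4 CPM in replicate 1, against 28.6, 0.654, 0.349 and 0.520 CPM in replicate 2 (3.43, SE 0.69, limma adjusted p = 0.426).

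**Figure D2:**
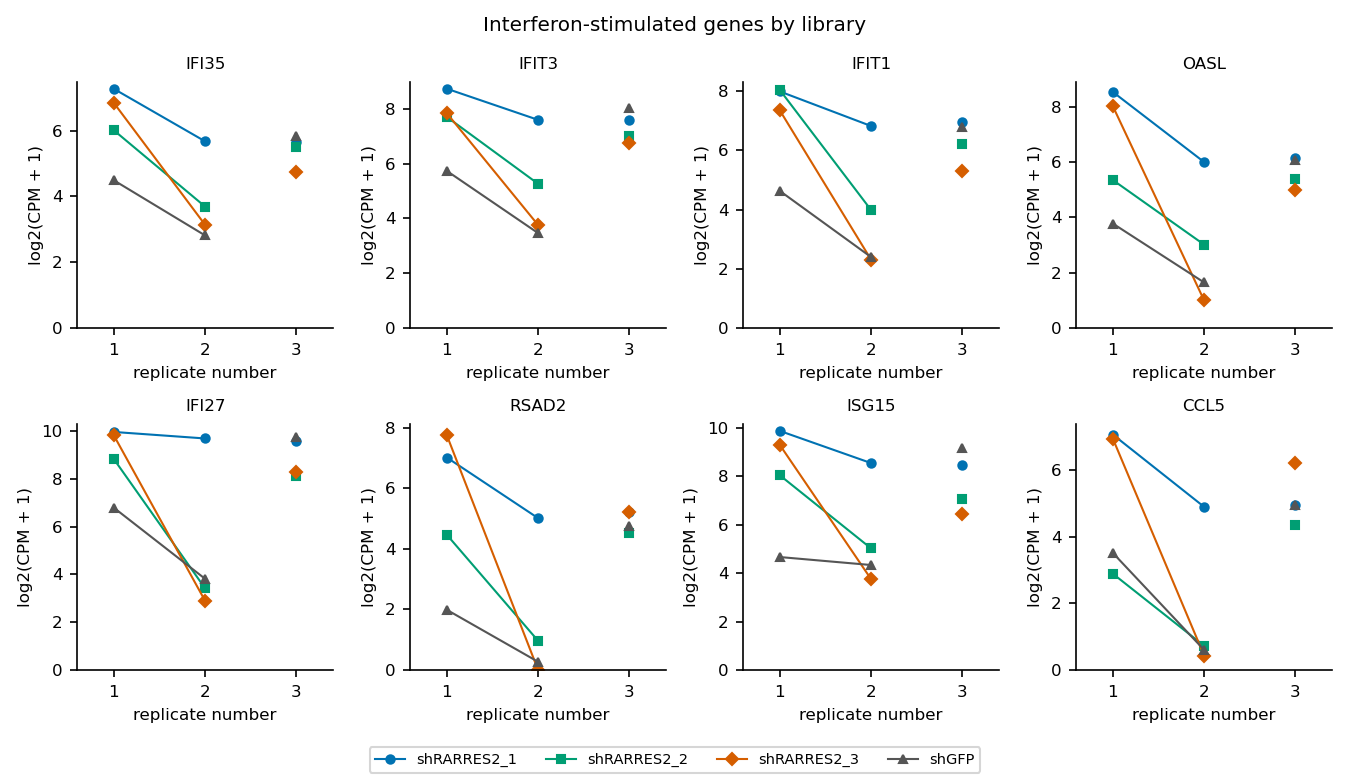
Level of 7 interferon-stimulated genes and of CCL5 in each of the 12 libraries, as log2(CPM + 1) against replicate number; lines join the compared libraries of each group and replicate 3 is shown unjoined. Every line runs downward to replicate 2, least steeply for ISG15 in shGFP (0.33) and IFI27 in shRARRES2_1 (0.27).

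Among the transducers of interferon signals, STAT2 differed by 0.31 (SE 0.49) and IRF7, the factor that amplifies interferon production, by 0.03 (SE 0.68). IRF9 was the 1 member lower in replicate 1 at an unadjusted limma p under 0.05, at 0.372, 1.48, 0.695 and 2.15 CPM in replicate 1, against 4.46, 1.07, 4.44 and 4.21 CPM in replicate 2 (-1.03, SE 0.43), a low level in all of them.

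Promoters of the list were searched for the core of the interferon-stimulated response element, the sequence bound by that complex of STAT2 and IRF9. It was sought as 2 copies of GAAA separated by any 2 bases, on both strands, in 250 bases before and 50 after each RefSeq gene start (GRCh38.p14). It occurred in 19 of the 27 list members with a promoter in the table (70.4%), in 4.38% of all 27305 genes and in 4.14% of the 9606 genes kept here. These shares describe the promoters of the list and use no replicate difference. The promoters of IFIT1 and ISG15 are shown because they hold the element, and that of IFI35 because the gene with the smallest p holds no match to these letters in the window. Capitals mark matches, which on the minus strand read as 2 copies of TTTC.
IFIT1 (chr10:89392373-89392672, plus strand): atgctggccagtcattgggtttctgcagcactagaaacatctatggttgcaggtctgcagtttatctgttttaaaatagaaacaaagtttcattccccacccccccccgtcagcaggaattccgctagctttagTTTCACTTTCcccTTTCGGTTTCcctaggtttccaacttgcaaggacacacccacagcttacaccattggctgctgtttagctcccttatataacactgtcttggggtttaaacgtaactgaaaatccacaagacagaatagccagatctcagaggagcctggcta
ISG15 (chr1:1013247-1013546, plus strand): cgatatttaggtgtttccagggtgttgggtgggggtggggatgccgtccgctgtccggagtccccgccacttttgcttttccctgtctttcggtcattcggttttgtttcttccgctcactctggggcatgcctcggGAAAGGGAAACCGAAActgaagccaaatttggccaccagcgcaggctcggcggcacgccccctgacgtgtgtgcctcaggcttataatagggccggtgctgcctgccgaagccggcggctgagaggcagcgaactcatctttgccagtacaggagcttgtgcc
IFI35 (chr17:43006534-43006833, plus strand): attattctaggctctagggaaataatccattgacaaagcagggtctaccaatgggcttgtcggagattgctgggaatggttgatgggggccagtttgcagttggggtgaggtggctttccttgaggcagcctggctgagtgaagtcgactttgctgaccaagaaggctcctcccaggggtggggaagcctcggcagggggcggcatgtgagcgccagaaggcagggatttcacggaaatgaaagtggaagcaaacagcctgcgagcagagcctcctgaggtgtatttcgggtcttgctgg
IFIT1 holds 2 separate matches, which begin 116 and 103 bases before the start. ISG15 holds 2 overlapping matches, 113 and 107 bases before the start.

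Mitotic genes differed in opposite directions in different pairs. Of 36 members 35 were kept, and all 35 had a fitted difference above 0 (median 1.24), yet 0 of 35 were higher in 4 of 4 groups. The median member was at a log2 difference of 0.37 in shRARRES2_1, -1.47 in shRARRES2_2, 3.25 in shRARRES2_3 and 2.52 in shGFP. Members higher in replicate 1 numbered 24 of 35, 0, 35 and 35 in those groups. At an unadjusted limma p under 0.05, 3 of 35 were higher, against 6.36% of all genes, and 32 of 35 were when the shRARRES2_2 pair was left out, against 11.96% of all genes in that fit.

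As levels, the median mitotic gene had 112, 52.9, 172 and 78.1 CPM in replicate 1 of shRARRES2_1, shRARRES2_2, shRARRES2_3 and shGFP, against 85.3, 157, 16.8 and 13.3 CPM in replicate 2. The replicate 3 libraries lay between 83.0 and 127 CPM. Replicate 2 of shRARRES2_3 and of shGFP therefore stood far below the other 10 libraries, and in shRARRES2_2 it was replicate 1 that was the lower library.

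CCNB1, the cyclin that drives entry into mitosis, had 286, 64.4, 389 and 76.5 CPM in replicate 1, against 84.5, 178, 12.2 and 12.1 CPM in replicate 2 (log2 difference 1.94, SE 0.83, limma adjusted p = 0.426). CDC20, the activator of the anaphase-promoting complex, had 973, 111, 848 and 127 CPM in replicate 1, against 171, 383, 13.4 and 11.2 CPM in replicate 2 (2.5, SE 1.0). PLK1, a mitotic kinase, had 281, 51.6, 376 and 58.8 CPM in replicate 1, against 64.4, 158, 17.5 and 13.8 CPM in replicate 2 (1.72, SE 0.79). TOP2A, which untangles chromosomes, had 112, 220, 660 and 362 CPM in replicate 1, against 145, 549, 119 and 58 CPM in replicate 2 (0.85, SE 0.66). In all 4 genes replicate 2 was the higher library in shRARRES2_2 and the lower one in shRARRES2_3 and shGFP.

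The cell cycle gene homology region, a sequence through which the DREAM complex represses these genes in resting cells, was sought as TTTGAA on both strands of the same windows. It occurred in 22 of the 30 mitotic genes with a promoter in the table (73.3%), in 18.2% of all genes and in 13.7% of the genes kept. It occurred in 3 of 27 interferon list members and in 1 of 36 DNA replication genes, and the interferon element occurred in 0 of the 30 mitotic genes. The 2 motifs overlapped in 29 of all promoters. Here too the shares describe promoters and use no replicate difference. PLK1 and TOP2A are shown with their matches in capitals (TTCAAA on the minus strand), and CCNB1, the cyclin above, as a promoter without a match in the window.
PLK1 (chr16:23678639-23678938, plus strand): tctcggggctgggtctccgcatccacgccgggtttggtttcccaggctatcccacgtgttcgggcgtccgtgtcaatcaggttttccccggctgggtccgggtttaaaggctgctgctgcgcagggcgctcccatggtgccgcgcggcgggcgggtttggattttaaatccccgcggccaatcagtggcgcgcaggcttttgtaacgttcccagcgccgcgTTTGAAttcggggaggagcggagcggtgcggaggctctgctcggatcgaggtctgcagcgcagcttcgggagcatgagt
TOP2A (chr17:40417847-40418146, minus strand): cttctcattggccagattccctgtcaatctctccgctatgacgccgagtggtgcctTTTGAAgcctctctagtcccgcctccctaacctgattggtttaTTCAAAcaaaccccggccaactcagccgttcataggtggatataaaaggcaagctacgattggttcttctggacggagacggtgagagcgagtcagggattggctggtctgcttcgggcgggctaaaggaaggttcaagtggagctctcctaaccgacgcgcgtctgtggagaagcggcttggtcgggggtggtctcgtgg
CCNB1 (chr5:69166900-69167199, plus strand): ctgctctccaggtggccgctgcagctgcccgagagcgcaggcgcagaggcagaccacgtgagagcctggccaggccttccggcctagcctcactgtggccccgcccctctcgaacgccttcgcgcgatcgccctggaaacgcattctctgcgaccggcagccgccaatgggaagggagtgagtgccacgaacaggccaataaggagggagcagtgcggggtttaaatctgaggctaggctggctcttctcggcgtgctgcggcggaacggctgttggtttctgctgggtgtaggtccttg
The match in PLK1 begins 29 bases before the start, and those in TOP2A begin 194 and 151 bases before it.

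DNA replication genes, like mitotic genes, had their highest group median in shRARRES2_3 and their lowest in shRARRES2_2. All 42 members were kept and 40 had a fitted difference above 0 (median 0.60), but 0 reached an unadjusted limma p under 0.05 and 0 were higher in 4 of 4 groups. Without the shRARRES2_2 pair 30 of 42 were higher at that p, against 11.96% of all genes. The median member was at 0.67 in shRARRES2_1, -1.40 in shRARRES2_2, 2.26 in shRARRES2_3 and 0.67 in shGFP. MCM2, a subunit of the replicative helicase, had 420, 107, 362 and 66.9 CPM in replicate 1, against 138, 249, 53.1 and 56 CPM in replicate 2. RRM2, which makes deoxynucleotides, had 109, 17.3, 138 and 21 CPM in replicate 1, against 53.2, 135, 5.94 and 4.94 CPM in replicate 2. Replicate 2 of shRARRES2_2 was the higher library of its pair in each gene, and the fitted differences of 0.84 (SE 0.58) and 1.09 (SE 0.94) were within the spread of the pairs.

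**Figure D3:**
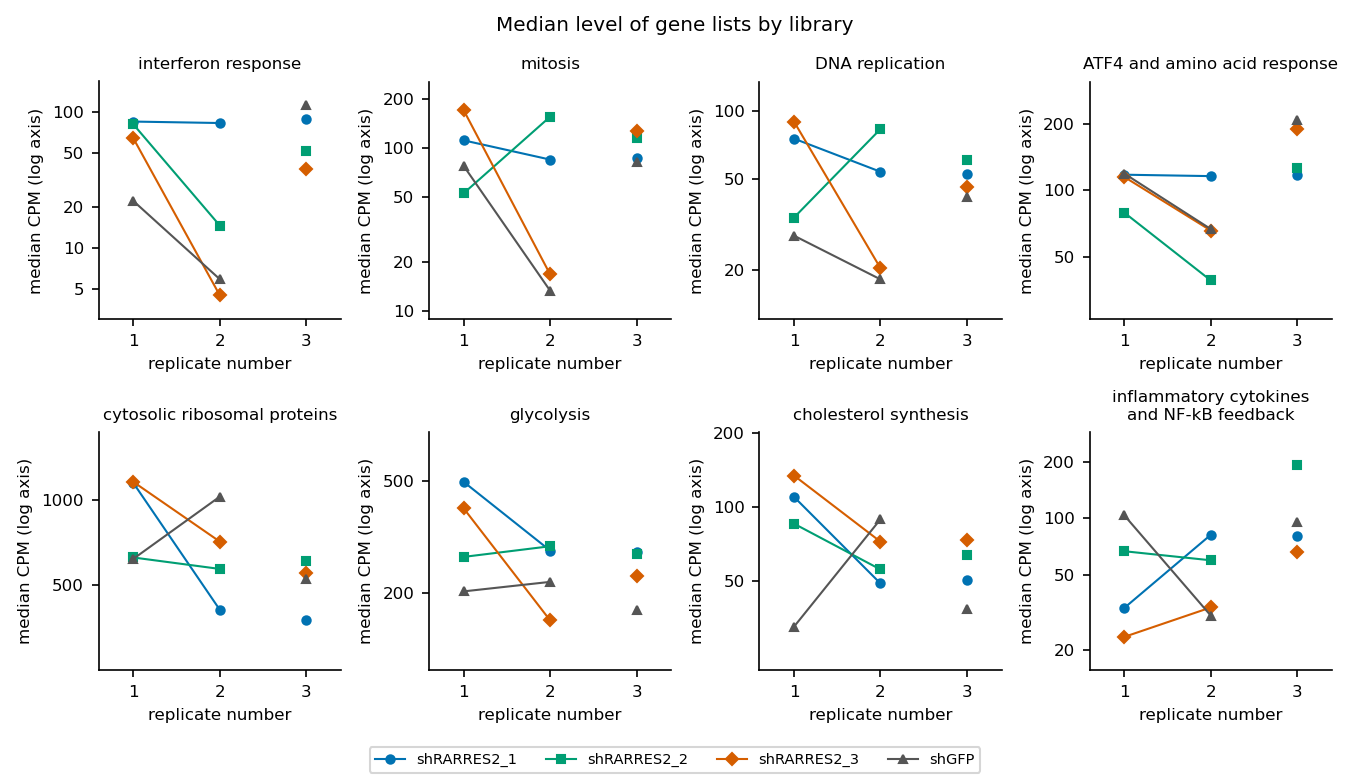
Median CPM of the kept members of 8 gene lists in each library (log axis) against replicate number, with lines joining replicate 1 and replicate 2 of each group. Interferon lines run downward in 3 groups and stay level in shRARRES2_1, mitosis and DNA replication lines cross for shRARRES2_2, and the cholesterol synthesis line of shGFP runs upward.

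The ATF4 and amino acid response genes had a median above 0 in each of the 4 groups. Of 25 members 24 were kept, 18 with a fitted difference above 0 and 6 below. At an unadjusted limma p under 0.05, 10 were higher in replicate 1, against 6.36% of all genes, and 0 lower. In 4 of 4 groups 10 of 24 were higher, against 9.95% of all genes, and the median was 0.80. The group medians were 0.39, 0.76, 1.13 and 0.66 in shRARRES2_1, shRARRES2_2, shRARRES2_3 and shGFP. The same median was 0.55 with the columns rescaled to a total of 1000000. Lysosomal genes, p53 targets and renal cell markers also had a median above 0 in each of the 4 groups.

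ATF4 itself had 449, 365, 353 and 379 CPM in replicate 1, against 297, 214, 137 and 224 CPM in replicate 2, with no overlap (log2 difference 0.87, SE 0.30, limma adjusted p = 0.426). SESN2, a leucine sensor that restrains mTORC1, had 83.6, 69.1, 59.99 and 68.5 CPM in replicate 1, against 45.3, 17.4, 23.2 and 25.8 CPM in replicate 2 (1.38, SE 0.29), also with no overlap. TRIB3, a pseudokinase that feeds back on ATF4, had 315, 96.2, 243 and 166 CPM in replicate 1, against 100, 43.3, 89.4 and 104 CPM in replicate 2 (1.22, SE 0.29). Replicate 1 of shRARRES2_2 was the 1 replicate 1 library of TRIB3 within the range of replicate 2.

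The serine enzymes of the list were picked after their values were seen, and none passed adjustment. PSPH, which makes serine, had 123, 61.3, 95.2 and 39.3 CPM in replicate 1, against 51.8, 54.6, 12.1 and 10.8 CPM in replicate 2 (1.51, SE 0.43). PSAT1, the step before it, differed by 1.25 (SE 0.38) and SHMT2, which passes serine carbon to folate, by 1.22 (SE 0.35), each higher in replicate 1 of 4 of 4 groups. CHAC1, which degrades glutathione, differed by 1.79 (SE 0.42). ASNS, another member, was at -0.32 (SE 0.41), with 2 of 4 pairs higher in replicate 1. Its mean level was low, at 1.42 CPM in replicate 1 and 1.77 CPM in replicate 2. DDIT3, the stress factor CHOP, was at 0.09 (SE 0.31) and the chaperone HSPA5, of the unfolded protein response, at 0.02 (SE 0.37), each with 2 of 4 pairs higher in replicate 1.

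Lysosomal genes had a median of 0.40, with 20 of 26 members above 0 and 0 past adjustment. All 26 members were kept. At an unadjusted limma p under 0.05, 8 were higher, against 6.36% of all genes, and 0 lower. In 4 of 4 groups 9 of 26 were higher, against 9.95% of all genes. For 5 of 26 the 4 replicate 1 libraries lay above all of replicate 2, against 1.81% of all genes. Members higher in replicate 1 numbered 16, 25, 16 and 14 of 26 in shRARRES2_1, shRARRES2_2, shRARRES2_3 and shGFP. With the columns rescaled to a total of 1000000 the median was 0.14 and 3 of 26 had an unadjusted limma p under 0.05, against 2.65% of all genes higher at that p. Without the shRARRES2_3 pair 1 of 26 did, against 1.95% of all genes. CTSD, the protease cathepsin D, had 580, 628, 556 and 680 CPM in replicate 1, against 524, 316, 291 and 263 CPM in replicate 2 (0.86, SE 0.34), with no overlap. LAMP1, a lysosomal membrane protein, differed by 0.71 (SE 0.32) with no overlap, and CTSB by 0.09 (SE 0.33).

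Sterol and fatty acid genes set shGFP against the hairpin groups. Of 24 kept cholesterol synthesis genes, 2 were higher in replicate 1 at an unadjusted limma p under 0.05, against 6.36% of all genes. Without the shGFP pair 14 of 24 were, against 4.74% of all genes. The median member was at 1.32, 0.73, 0.76 and -1.36 in shRARRES2_1, shRARRES2_2, shRARRES2_3 and shGFP, and 3 of 24 were higher in replicate 1 of shGFP against 23, 22 and 18 in the hairpin groups. HMGCS1, which makes the HMG-CoA used for sterols, had 142, 170, 162 and 51.1 CPM in replicate 1, against 64.9, 87.4, 83.4 and 105 CPM in replicate 2. INSIG1, which retains the sterol sensor in the endoplasmic reticulum, had 53.4, 362, 233 and 30.7 CPM in replicate 1, against 31.8, 101, 188 and 202 CPM in replicate 2. For both genes the shGFP pair was the one in which replicate 2 was higher, and the fitted differences of 0.49 (SE 0.40) and 0.05 (SE 0.64) were within the spread of the pairs. The 12 kept fatty acid genes had group medians of 0.94, 0.49, 0.50 and -0.48. Whether the shGFP pair differs from the others was not tested, since each group held 1 library per number.

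Ribosomal protein, glycolytic and respiratory genes were high in the 2 libraries that stood apart. The median of 65 cytosolic ribosomal protein genes was 1153 and 1163 CPM in replicate 1 of shRARRES2_1 and shRARRES2_3, and 627 and 620 CPM in replicate 1 of shRARRES2_2 and shGFP, against 409, 714, 571 and 1031 CPM in replicate 2 of shRARRES2_1, shRARRES2_3, shRARRES2_2 and shGFP. The median pair differences were 1.58, 0.04, 0.67 and -0.75 in shRARRES2_1, shRARRES2_2, shRARRES2_3 and shGFP, and 0 of 65 had an unadjusted limma p under 0.05. Of 37 respiratory genes, mostly of complex I, 0 were higher and 1 lower at that p, against 6.36% and 5.28% of all genes. Their group medians were 0.95, -0.06, 1.5 and -0.46. Of 23 kept glycolytic genes 3 were higher and 1 lower, against the same shares, with group medians of 0.93, -0.25, 1.23 and 0.02. LDHA, which makes lactate, had 2017, 851, 3149 and 833 CPM in replicate 1, against 781, 1639, 467 and 471 CPM in replicate 2 (0.999, SE 0.59). SLC2A1, the glucose transporter GLUT1, had 831, 344, 300 and 490 CPM in replicate 1, against 427, 292, 159 and 210 CPM in replicate 2 (0.83, SE 0.31), higher in each pair.

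HIF targets and YAP targets had medians below 0 over the 4 groups, with group medians on both sides of 0. Of 25 kept HIF targets 19 were below 0 (median -0.26). At an unadjusted limma p under 0.05, 1 was higher and 0 lower, against 6.36% and 5.28% of all genes. VEGFA, the angiogenic growth factor, was at -0.18 (SE 0.47). Group medians of the HIF targets were -0.24, 0.23, -0.56 and -0.14 in shRARRES2_1, shRARRES2_2, shRARRES2_3 and shGFP. Of 21 kept YAP targets 14 were below 0 (median -0.29). At that p 2 were lower, ANKRD1 and GADD45A, against 5.28% of all genes. Group medians of the YAP targets were -0.69, -0.21, -0.47 and 0.45, with 16 of 21 higher in replicate 1 of shGFP. ANKRD1, a YAP-responsive nuclear cofactor, had 3.88, 23.1, 2.72 and 3.27 CPM in replicate 1, against 33.6, 32.9, 22.6 and 18.9 CPM in replicate 2 (-2.05, SE 0.43, limma adjusted p = 0.426). The YAP targets CTGF and CYR61 were at 0.15 (SE 0.60) and -0.43 (SE 0.43).

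Inflammatory, immediate early and matrix genes were led by the shGFP pair. The 21 kept inflammatory genes had group medians of -1.10, 0.37, 0.39 and 1.62 in shRARRES2_1, shRARRES2_2, shRARRES2_3 and shGFP. Of them, 1 of 21 was higher at an unadjusted limma p under 0.05, against 6.36% of all genes. IL6, an inflammatory cytokine, had 12.2, 63.1, 7.24 and 179 CPM in replicate 1, against 43.6, 23.4, 4.29 and 7.17 CPM in replicate 2. EGR1, a transcription factor induced within minutes of stimulation, had 1023 CPM in replicate 1 of shGFP against 1.82 CPM in replicate 2, and 1.84 to 83.8 CPM in the other 10 libraries. FOS followed it at 491 CPM in replicate 1 of shGFP against 1.97 CPM in replicate 2, and FOSB at 546 CPM against 4.57 CPM. Leaving out the shGFP pair put the median of the 21 kept immediate early genes at -0.08 in place of 0.30, and that of the inflammatory genes at -0.04 in place of 0.24. Among 27 kept matrix genes, with group medians of -0.27, 0.26, 0.57 and 1.44, 5 were higher at an unadjusted limma p under 0.05, against 6.36% of all genes. That count was 1 of 27 without the shGFP pair (4.74% of all genes), 1 without the shRARRES2_3 pair (1.95%) and 1 with the columns rescaled to a total of 1000000 (2.65%). SPARC, a collagen-binding matrix protein, had 322, 1570, 1125 and 963 CPM in replicate 1, against 206, 743, 298 and 628 CPM in replicate 2 (1.06, SE 0.37), higher in each pair.

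Genes outside the lists with a small p and 1 direction in 4 of 4 groups are given as genes that did not pass (limma adjusted p = 0.426 for each). ELF3, an epithelial transcription factor, had 49.7, 33.1, 55.4 and 46.8 CPM in replicate 1, against 24.4, 6.30, 5.64 and 7.33 CPM in replicate 2 (2.21, SE 0.38). MMP24, a membrane-type metalloprotease, had 85.3, 85.9, 78.2 and 53.2 CPM in replicate 1, against 29.996, 39.9, 8.23 and 4.83 CPM in replicate 2 (2.22, SE 0.42). IGFBP4, which binds insulin-like growth factors, had 59.5, 40.5, 69.4 and 32.4 CPM in replicate 1, against 23, 12.7, 9.28 and 13.8 CPM in replicate 2 (1.72, SE 0.35). In these 3 genes the sets did not overlap, as also in RASAL1, a Ras inhibitor, and SARDH, a mitochondrial sarcosine dehydrogenase. The amino acid transporter SLC43A2 differed by 2.03 (SE 0.35), the matrix crosslinking enzyme LOXL1 by 1.86 (SE 0.33) and the peptide transporter SLC15A3 by 1.86 (SE 0.35), with overlap.

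On the lower side, the sets did not overlap for TMEM158, ELL2, TBX3, CPED1, ESF1 and TM4SF19. TMEM158, a membrane protein first described in Ras-driven senescence, had 16.7, 9.57, 17.2 and 11.1 CPM in replicate 1, against 39.4, 77.6, 34.2 and 84.5 CPM in replicate 2 (-1.97, SE 0.41). ELL2, an elongation factor of RNA polymerase II, had 23.3, 32.4, 19 and 52 CPM in replicate 1, against 58.7, 61.9, 151 and 149 CPM in replicate 2 (-1.66, SE 0.37). TBX3, a T-box repressor, had 25.4, 21, 33.2 and 37.2 CPM in replicate 1, against 49.4, 44.3, 104 and 94.1 CPM in replicate 2 (-1.23, SE 0.27). G0S2, an inhibitor of the lipase ATGL, differed by -1.53 (SE 0.35), CYP27B1, which activates vitamin D, by -1.74 (SE 0.42), and the inositol transporter SLC5A3 by -1.52 (SE 0.37), with overlap. CENPJ, a centriole protein, was at -1.44 (SE 0.31), the opposite side from the mitotic list. AKR1C1, at -1.64 (SE 0.34), has near-identical relatives that may share its reads.

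The 4 pairs did not share 1 pattern. Across the 14015 genes the pair differences of shRARRES2_1 and shRARRES2_3 correlated at r = 0.66 and those of shRARRES2_3 and shGFP at r = 0.46. Correlations were -0.18 for shRARRES2_1 with shRARRES2_2, -0.19 for shRARRES2_2 with shRARRES2_3, -0.05 for shRARRES2_1 with shGFP and 0.07 for shRARRES2_2 with shGFP. As libraries, replicate 1 of shRARRES2_1 and of shRARRES2_3 correlated at r = 0.978 with each other. With replicate 2 of their own groups they correlated at 0.937 and 0.843. These are descriptions across genes, which are not independent replicates; the groups share no library, but their libraries share preparation steps that the labels do not date. The spread of the pair differences was widest in shRARRES2_3 (SD 1.29 on the log2 scale over genes) and narrowest in shRARRES2_2 (SD 0.672), with 0.861 in shRARRES2_1 and 0.870 in shGFP.

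**Figure D4:**
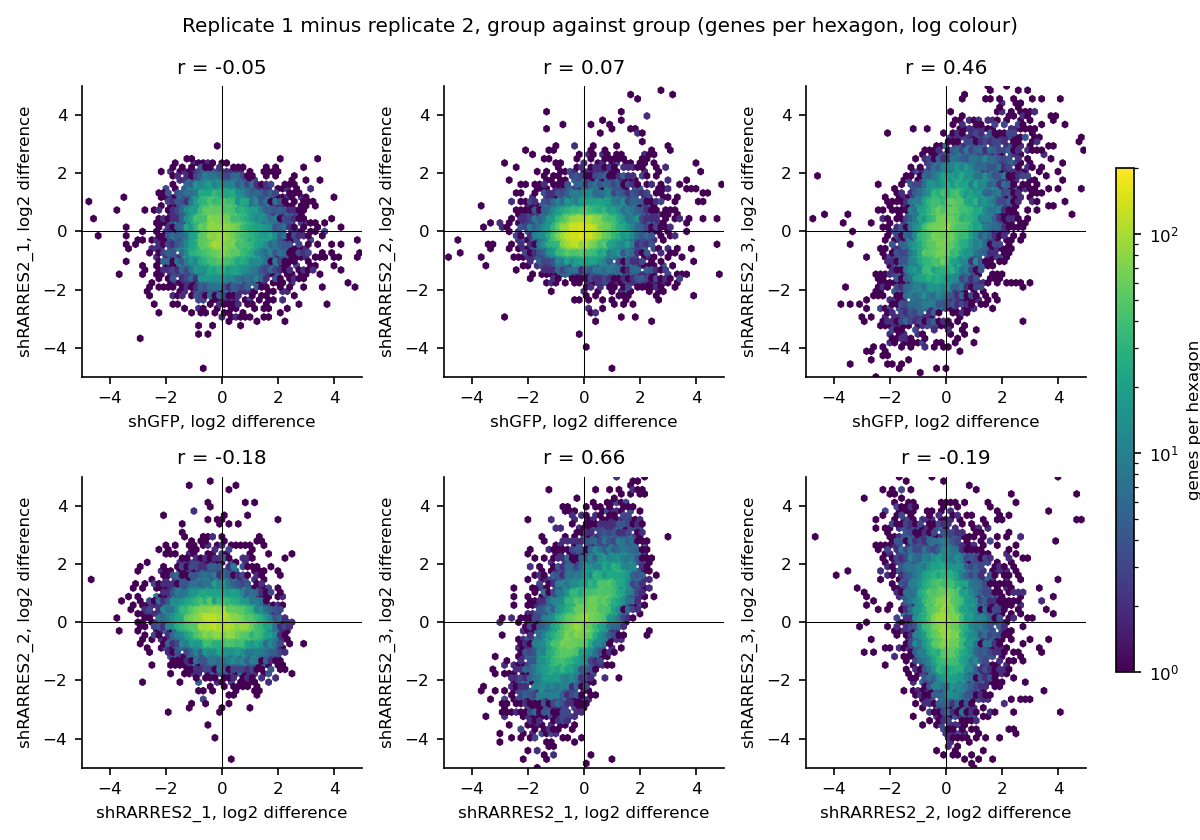
Replicate 1 minus replicate 2 difference in log2(CPM + 1) of each gene in 1 group (horizontal) against another group (vertical), for the 6 pairs of groups; colour is the number of genes per hexagon on a log scale, and 33 genes lie beyond 5 on an axis. The cloud slopes upward for shRARRES2_1 with shRARRES2_3 (r = 0.66) and for shGFP with shRARRES2_3 (r = 0.46), and not in the other panels.

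A difference of 2-fold or more on the log2(CPM + 1) scale occurred in replicate 1 of shRARRES2_3 for 3316 genes higher and 2504 lower. The counts were 1653 higher and 1841 lower in shRARRES2_1, 887 and 706 in shRARRES2_2, and 1795 and 1028 in shGFP. As single-library values, the largest in shRARRES2_1 on the lower side included MMP1, a collagenase, at 2.02 CPM in replicate 1 against 140 CPM in replicate 2. In shRARRES2_2 they included ANGPTL4, a lipoprotein lipase inhibitor, at 0.688 CPM against 25.8 CPM. In shRARRES2_3 they included LBP, the lipopolysaccharide-binding protein, at 10.2 CPM against 408 CPM.

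Per gene, hairpin group took a median 41.5% of the sum of squares over the 8 libraries, replicate number 15.6% and the remainder 34.2%. Their shares of the degrees of freedom were 42.9%, 14.3% and 42.9%. A moderated F-test between the 4 hairpin groups in the same fit also called 0 genes (0% of those tested, 784 at an unadjusted limma p under 0.05, smallest adjusted p = 0.393). RARRES2 had the smallest p of that test. Adding the replicate 3 libraries, limma called 0 genes for replicate 1 minus 2, 1 minus 3 and 2 minus 3; at an unadjusted p under 0.05 it gave 1627 higher and 1555 lower, 621 and 1193, and 197 and 851 genes. shRARRES2_1 replicates 2 and 3 were nearly alike in that fit (r = 0.997). Their median squared count difference was 2.49 times that of counting noise. For other pairs of a group this ratio of squares was 17.9 or more.

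Transcript length and base composition moved with the pair difference in 2 groups. Genes were divided into 5 equal bins by the length and GC content of their longest GENCODE 29 transcript, known for 14007 of them. From the shortest to the longest bin, the median difference was 0.24 to -0.50 in shRARRES2_1 and 0.51 to -0.31 in shRARRES2_3, beside 0.02 to 0.02 in shRARRES2_2 and -0.05 to 0.06 in shGFP. From the lowest to the highest GC bin it was -0.57 to 0.46 in shRARRES2_1 and -0.36 to 0.51 in shRARRES2_3, beside -0.01 to 0.08 in shRARRES2_2 and 0.03 to -0.07 in shGFP. The 525 antisense genes had medians of -0.55, 0.11, -0.63 and 0.06 in shRARRES2_1, shRARRES2_2, shRARRES2_3 and shGFP, and the 424 lincRNA genes -0.42, 0.17, -0.27 and 0.16. The sources used here do not state whether strand was used in counting, so an antisense gene and its partner may share reads.

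NEAT1, the long nuclear RNA that builds paraspeckles (chromosome 11, 65422774 to 65445540, plus strand, GRCh38), had 29.9, 621, 31.1 and 2227 CPM in replicate 1 of shRARRES2_1, shRARRES2_2, shRARRES2_3 and shGFP, against 780, 225, 3931 and 3494 CPM in replicate 2. The same 2 replicate 1 libraries that had the lowest scaling factors and the fewest genes with a read were the ones low in NEAT1 and high in short, GC-rich and ribosomal protein transcripts. The part of length, GC content or library preparation in the other differences of these groups was not tested. The interferon list was at -0.11, 2.34, 3.54 and 1.66 in shRARRES2_1, shRARRES2_2, shRARRES2_3 and shGFP. Its relation to length and GC content was not tested.

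**Figure D5:**
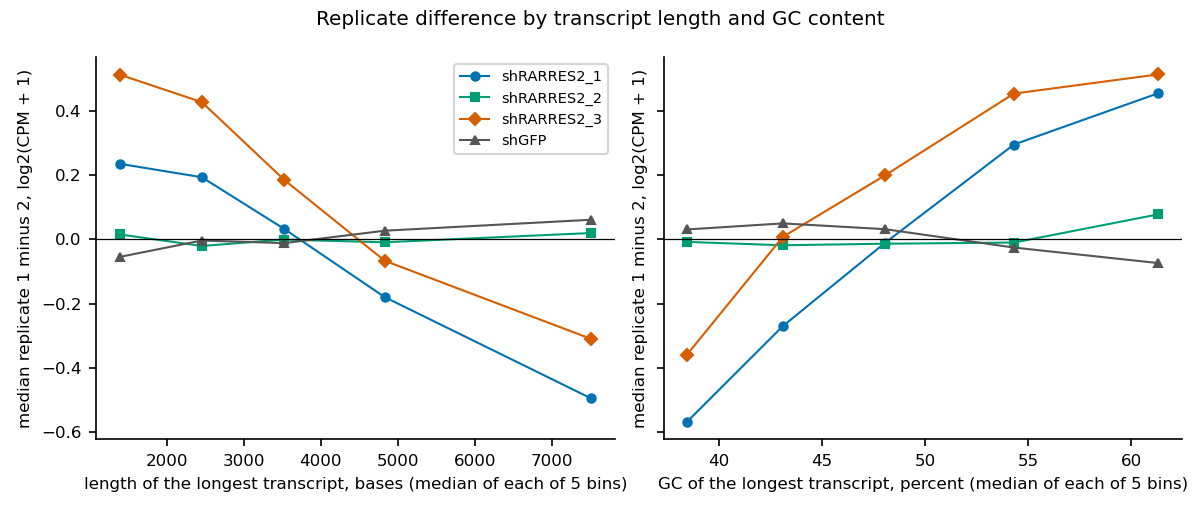
Median replicate 1 minus replicate 2 difference in log2(CPM + 1) in 5 bins of genes by transcript length (left) and GC content (right), 1 line per group. shRARRES2_1 and shRARRES2_3 slope from 0.24 and 0.51 in the shortest bin to -0.50 and -0.31 in the longest, while shRARRES2_2 and shGFP stay between -0.07 and 0.08 in both panels.

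Some keratinocyte genes stood out in 1 library. KRT5, KRT14 and KRT6A, keratins of squamous epithelium, had 169, 119 and 99.3 CPM in replicate 2 of shGFP, were at 0 reads in its replicate 1, and had 0.286 to 8.18 CPM in the other 10 libraries. Of the 31 markers 10 were kept, and 3 of these 10 were higher in replicate 1 of shGFP. The summed level of all 31 was 219 to 394 CPM in replicate 1 against 136 to 727 CPM in replicate 2. In shGFP it was 219 CPM in replicate 1 and 727 CPM in replicate 2. Some fibroblast markers were also high in replicate 2 of shGFP, with 18.3 CPM of COL3A1, 7.22 CPM of DCN and 1.30 CPM of PDGFRA. The other 11 libraries had 3.82, 0.630 and 0.485 CPM or less of these. DCN and PDGFRA were at 0 reads in replicate 1 of shGFP. LUM was not high in replicate 2 of shGFP, at 1.66 CPM against 70.2 CPM in replicate 1 of shRARRES2_2. Of the 10 fibroblast markers 5 were kept. The summed level of all 10 was 14.03 to 91.4 CPM in replicate 1 against 28.7 to 70.8 CPM in replicate 2. The 91.4 CPM was in replicate 1 of shRARRES2_2 and the 70.8 CPM in replicate 2 of shGFP. The part of both marker lists in the shGFP pair was not tested.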

How the data were processed

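The deposited signal is TMM-normalized CPM per gene, made by the authors on hg38; edgeR, STAR 2.5.2, Trim Galore 0.6.1 and CASAVA are named in the submitters' processing notes. Annotation and strand of counting are not given in the sources used here. Each value was a whole multiple of 1 read (100% at a tolerance of 1e-06), so reads were recovered. The tests had been set for unscaled CPM and were kept. Gene members and lists were chosen with earlier results of these data known.

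Differences are in log2(CPM + 1), so those of low genes are understated. limma 3.58.1 (R 4.3.3) fitted group and replicate number to the 8 libraries, with a mean-variance trend, Benjamini-Hochberg adjustment at 0.05, 3 residual and 5.18 prior degrees of freedom, two-sided. Library measures had exact sign-flip tests. The replicate number paired the libraries within a group by the comparison's own definition. Correlations of the pair differences between groups ran from -0.19 to 0.66. They cannot tell what a number shares across groups, since shifts of single libraries also enter them.

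Named genes were, in each direction, up to 12 with 1 direction in 4 of 4 groups, 5 CPM on average in the higher set and the smallest p, none having passed; up to 4 leading members of each list; the 3 highest and 3 lowest per pair; RARRES2; and the 6 leading genes of the F-test. Other list members were chosen after their values were seen. Some genes are not reported here. Coordinates are GENCODE 29, to which 58261 of 58381 identifiers matched; promoters are RefSeq, GRCh38.p14.

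On simulated data of this comparison (13594 genes) limma recovered 16.4%, 94.0% and 100% of the genes given log2 differences of 1, 2 and 3. These rates are for independent genes whose spread follows their level. They may not hold for the data, where IFIT1 at 3.13 and CCL5 at 3.43 did not pass. Alternatives covered pseudocounts, filters, scalings, spread estimates, blocks, edgeR 4.0.16, DESeq2 1.42.0 and leaving out each pair. Counting error covers reads, not independent molecules.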

Additional observations from a re-analysis of the deposited data

Results flagged for a closer look

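In 4 genes the difference of 1 pair lay far from those of the other 3, by a gap test that flags about 1 in 20 groups of values by chance. It was run on the 24 leading genes, up to 4 members of each of the 31 lists, RARRES2, list medians and library measures. Flags by chance are therefore to be expected, and no list median or library measure was flagged. SNHG5, a small nucleolar RNA host gene, was at 1.99 on the log2 scale in shRARRES2_3, beside 0.44 to 0.59 in the other groups. HMGCS1 was at -1.03 in shGFP, beside 0.95 to 1.12 in the hairpin groups. KRT5 was at -7.41 and KRT6A at -6.65 in shGFP, on the log2(CPM + 1) scale and with 0 reads in replicate 1.

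In 5 gene lists the median difference of replicate 1 minus replicate 2 pointed opposite ways in 2 groups by more than 1 on the log2 scale each. For mitosis it was 3.25 in shRARRES2_3 and -1.47 in shRARRES2_2. For DNA replication it was 2.26 in shRARRES2_3 and -1.40 in shRARRES2_2. For cholesterol synthesis it was 1.32 in shRARRES2_1 and -1.36 in shGFP. For inflammatory cytokines and NF-kB feedback it was -1.10 in shRARRES2_1 and 1.62 in shGFP. For keratinocyte markers it was 1.09 in shRARRES2_3 and -2.04 in shGFP. The difference between groups was not tested in any of these, since each held 1 library per number.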

How the results depend on the processing

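The count of adjusted calls stayed at 0 for replicate 1 minus replicate 2 in every alternative run except DESeq2, which called 165. At an unadjusted p under 0.05, genes higher and lower in replicate 1 numbered 892 and 740 as reported, 371 and 1392 with columns rescaled to a total of 1000000, and 1627 and 1555 in the 12-library fit with a replicate block of 3 levels. Lower genes numbered 2092 with no filter, 448 at 5 CPM and 1127 with DESeq2. Leaving out 1 pair at a time gave 273 (without shRARRES2_3) to 1676 (without shRARRES2_2) higher and 173 (without shRARRES2_3) to 1438 (without shRARRES2_2) lower genes, with 329 lower without shRARRES2_1. The smallest adjusted p in limma was 0.0682 without the shRARRES2_2 pair and 0.994 without the shRARRES2_3 pair. The cause of these moves was not tested. The interferon list kept 20 to 30 of 36 members higher at an unadjusted p under 0.05 across the alternatives, against 1.95% to 11.96% of all genes. Its median was 1.29 (without shRARRES2_3) to 2.57 (without shRARRES2_1). The mitosis list had 0 to 19 of 35 higher at that p, and 32 of 35 without shRARRES2_2, where the share of all genes was 11.96%. The lysosome median was 0.14 with columns rescaled. The count of inflammatory genes higher at that p, 1 of 21 as reported, was 6 without shRARRES2_1, against 5.22% of all genes. That of glycolytic genes, 3 of 23, was 0 without shRARRES2_1 (5.22% of all genes) or shRARRES2_3 (1.95%). It was 6 without shRARRES2_2 (11.96%). All 383 alternative values of the 24 leading genes kept their sign, and 24 of them passed adjustment, all in DESeq2. With pairs left out, the median variance share ran from 32.9% (without shRARRES2_2) to 51.4% (without shRARRES2_3) for group, from 8.97% (without shRARRES2_3) to 30.5% (without shRARRES2_2) for replicate number, and from 25.9% (without shRARRES2_2) to 35.2% for the remainder, which was 38.2% over 12 libraries. The F-test between groups called 1 gene without shRARRES2_2, 5 without shRARRES2_3 and 23 over 12 libraries. Depth limits genes near 1 CPM, where 3 reads are 0.145 to 0.223 CPM.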
